A study of Mus musculus with 6 samples.

Results

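The 9 genes described here make, use and renew the methyl donor S-adenosylmethionine in the liver, or pass on what is left of methionine afterwards: Mat1a, Mat2a, Gnmt, Ahcy, Bhmt, Bhmt2, Cbs, Cth and Gamt. They were chosen by name, with earlier results of these data known. Every probe set whose only gene symbol in the array annotation is one of these names was taken. That gave 10 probe sets for 8 of the 9 genes, out of 22626 probe sets tested and 12393 genes with a probe set of their own. Bhmt2 and Cbs have 2 probe sets each. Mat2a had no probe set carrying its symbol alone and was not analysed here. Liver RNA of 3 DUhTP arrays was compared with that of 3 DUC arrays. DUhTP (marathon) mice descend from long selection for high treadmill performance without training, and DUC mice are the unselected control line of the same non-inbred base population, itself founded from outbred and inbred stocks. All mice were male and 70 days old and carried no transgene. The paper describes the arrays of a line as pools whereas the labels speak of a mouse, so the spread between arrays may be one between pools or between mice. Each line is a single breeding population, so an effect of selection and a chance difference between the populations cannot be told apart.

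In the methionine cycle, methionine adenosyltransferase joins methionine to ATP to give S-adenosylmethionine, which donates its methyl group and leaves S-adenosylhomocysteine. This product is split into adenosine and homocysteine. Homocysteine is then either methylated back to methionine, from betaine or from folate, or sent through transsulfuration to cysteine, which feeds glutathione and taurine. The liver carries most of this traffic in the body, and creatine synthesis is among the largest users of its methyl groups.

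Of the genes of the cycle, Cth and Mat1a fell and Gamt rose in DUhTP mice, while Gnmt, Ahcy, Bhmt, Bhmt2 and Cbs did not pass the test. Intensities are PLIER probe set summaries on a linear scale in arbitrary units. They were compared after log2 transformation in limma, with p adjusted by Benjamini-Hochberg over the whole array, and a probe set was called at an adjusted p under 0.05. A negative fold change (FC) means lower abundance in DUhTP mice. Of the 10 member probe sets 3 were called, 1 higher and 2 lower, which is 30.0% of them. Over the whole array 2.41% of the probe sets were called, 1.36% higher and 1.05% lower in DUhTP mice. With an FC over 2 as a further condition 2 of the 10 remained, Gamt and Cth, against 1.45% of all probe sets. The lines did not overlap on 5 of the 10 member probe sets, and this was so for 29.4% of all probe sets. Every member probe set read above the array medians of 53.1 to 57, so the whole array holds many dimmer probe sets. The 2.41% depends on the setting: with 16 added to every intensity, 8.62% of all probe sets were called, and the same 3 member probe sets. The cause of that rise was not tested. The median log2 fold change was -0.08 over the 10 member probe sets and -0.02 over all probe sets. Because earlier results of these data were known when the members were chosen, their share of calls is not independent evidence about the set.

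**Figure D1:**
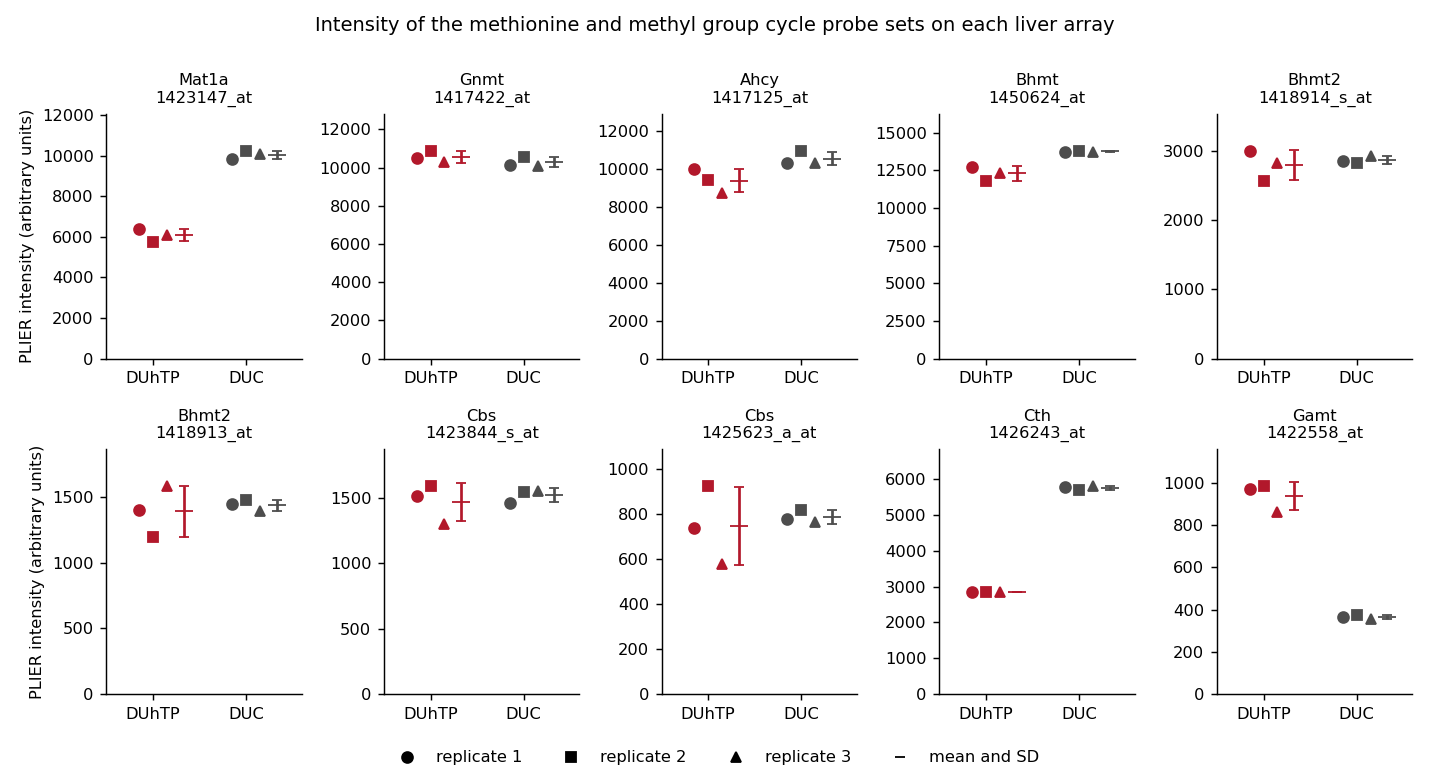
PLIER intensity (arbitrary units, axes from 0) of the 10 member probe sets on the 3 DUhTP arrays (red) and the 3 DUC arrays (grey), with mean and SD beside the points. Mat1a and Cth read lower and Gamt higher on all 3 DUhTP arrays than on any DUC array.

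The lowered synthetase transcript was Mat1a, which encodes the catalytic subunit of the methionine adenosyltransferase of adult liver. Its intensity on 1423147_at was 6380, 5765 and 6110 in DUhTP mice, against 9840, 10236 and 10079 in DUC mice. All 3 DUhTP arrays thus lay well below the lowest DUC array. The mean was 6085 ± 308 in DUhTP mice, against 10052 ± 200 in DUC mice (SD, n = 3 arrays each). The FC of -1.65, which is -0.73 ± 0.10 (SE) on the log2 scale, had an adjusted p = 0.0321 in limma. The call was lost whichever array was left out. Omitting DUhTP replicate 1, 2 or 3 gave an adjusted p of 0.0894, 0.0778 and 0.0891 in limma. Omitting DUC replicate 1, 2 or 3 gave 0.110, 0.137 and 0.137. The log2 fold change itself stayed between -0.76 and -0.69 in these fits.

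Gnmt and Ahcy, which act after the synthetase, did not pass the test. Glycine N-methyltransferase (Gnmt) moves the methyl group of S-adenosylmethionine to glycine and so disposes of surplus donor. It read 10483, 10877 and 10307 in DUhTP mice, against 10161, 10580 and 10084 in DUC mice on 1417422_at. The ranges of the lines overlap. The log2 fold change was 0.04, with a 95% interval of -0.20 to 0.28 and an adjusted p = 0.860. Adenosylhomocysteinase (Ahcy) splits the by-product of every such methyl transfer. On 1417125_at it read 9987, 9420 and 8732 in DUhTP mice and 10327, 10942 and 10329 in DUC mice. All DUhTP arrays were below all DUC arrays, but the distance was small against the spread (log2 fold change -0.17, 95% interval -0.43 to 0.10, adjusted p = 0.424).

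The remethylation genes Bhmt and Bhmt2 did not pass either. Betaine-homocysteine methyltransferase (Bhmt) returns a methyl group from betaine to homocysteine. Its intensity on 1450624_at was 12752, 11779 and 12341 in DUhTP mice, against 13721, 13791 and 13747 in DUC mice. The DUC arrays agree closely and every DUhTP array is below them. The log2 fold change was -0.16 (95% interval -0.40 to 0.08, adjusted p = 0.400). The brightest probe set of each array read between 16787 and 17301, so Bhmt, Gnmt and Ahcy lie in the upper part of the scale, and so does Mat1a in DUC mice. Whether differences are compressed there, the FC of Mat1a included, was not tested. Bhmt2, which methylates homocysteine from S-methylmethionine, is the neighbour of Bhmt in the mouse annotation (GRCm38.p6), with 0 genes between them. Its probe set 1418914_s_at read 3000, 2569 and 2820 in DUhTP mice, against 2849, 2830 and 2928 in DUC mice. On 1418913_at it read 1404, 1194 and 1582 in DUhTP mice, against 1446, 1474 and 1390 in DUC mice. The lines overlap on both, with log2 fold changes of -0.04 (95% interval -0.31 to 0.23, adjusted p = 0.872) and -0.05 (95% interval -0.39 to 0.28, adjusted p = 0.863). On both, the sign turned without DUhTP replicate 2, to 0.020 and 0.053.

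The transsulfuration steps differed from each other: Cth fell and Cbs did not pass. Cystathionine gamma-lyase (Cth) releases cysteine from cystathionine and is a source of hydrogen sulfide. On 1426243_at it read 2841, 2837 and 2839 in DUhTP mice, against 5771, 5691 and 5804 in DUC mice. The DUhTP arrays were nearly identical to one another, with a coefficient of variation of 0.0674%, against 1.01% in DUC mice. The mean was 2839 ± 1.91 in DUhTP mice, against 5755 ± 58.1 in DUC mice (SD, n = 3 arrays each). The FC of -2.03, which is -1.02 ± 0.09 (SE) on the log2 scale, had an adjusted p = 0.0141 in limma. Omitting DUhTP replicate 2 kept the call (adjusted p = 0.0463). Omitting DUhTP replicate 1 or 3 ended it (adjusted p = 0.0576 and 0.0582), and so did omitting DUC replicate 1, 2 or 3 (adjusted p = 0.0665, 0.0875 and 0.0885). Cystathionine beta-synthase (Cbs) joins homocysteine to serine and commits it to this route. Its brighter probe set 1423844_s_at read 1513, 1588 and 1303 in DUhTP mice, against 1456, 1548 and 1553 in DUC mice. The dimmer 1425623_a_at read 739, 923 and 578 in DUhTP mice, against 777, 820 and 764 in DUC mice. On both, the DUC values lie within the wider span of the DUhTP values. The log2 fold changes were -0.05 (95% interval -0.35 to 0.24, adjusted p = 0.841) and -0.10 (95% interval -0.56 to 0.36, adjusted p = 0.808). Both turned in sign without DUhTP replicate 3, to 0.030 and 0.071.

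Gamt, guanidinoacetate N-methyltransferase, makes creatine with a methyl group from S-adenosylmethionine, and it was the member that rose. Its intensity on 1422558_at was 970, 985 and 864 in DUhTP mice, against 365, 376 and 354 in DUC mice. The lowest DUhTP array was well above the highest DUC array. The mean was 940 ± 65.9 in DUhTP mice, against 365 ± 10.8 in DUC mice (SD, n = 3 arrays each). The FC of 2.57, which is 1.36 ± 0.11 (SE) on the log2 scale, had an adjusted p = 0.0104 in limma. Omitting DUhTP replicate 1, 2 or 3 kept the call (adjusted p = 0.0443, 0.0422 and 0.0428), and omitting DUC replicate 1, 2 or 3 ended it (adjusted p = 0.0559, 0.0637 and 0.0701).

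Gamt and Gnmt both spend S-adenosylmethionine on a small molecule, and their transcripts differed in outcome, so the sequence ahead of each gene is shown. It comes from the RefSeq promoter table (GRCm38.p6), in which 7 of the 9 members were found by symbol; Mat1a and Cth were not. Each is the stretch from 250 to 51 bases before the annotated start, 200 bases in all, on the minus strand, written 5′ to 3′. Capitals mark the GC box GGGCGG or its reverse complement CCGCCC, searched on both strands.
Gamt, chr10:80261063-80261262: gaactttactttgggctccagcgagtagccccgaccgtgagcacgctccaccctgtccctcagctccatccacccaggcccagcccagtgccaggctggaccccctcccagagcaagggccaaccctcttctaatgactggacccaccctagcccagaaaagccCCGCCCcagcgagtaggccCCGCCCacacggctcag
Gnmt, chr17:46729216-46729415: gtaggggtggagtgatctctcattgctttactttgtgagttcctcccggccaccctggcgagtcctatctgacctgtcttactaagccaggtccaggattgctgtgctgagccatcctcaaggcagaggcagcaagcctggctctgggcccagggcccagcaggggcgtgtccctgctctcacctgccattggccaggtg
The Gamt stretch holds 2 GC boxes and no CCAAT (or ATTGG on the other strand). The Gnmt stretch holds 0 GC boxes and 1 CCAAT in the reverse orientation, ATTGG. Among 32851 such windows of the same length over the annotated starts, 24.6% hold a GC box and 28.4% a CCAAT. The matches describe these letters and are no evidence of a bound factor.

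**Figure D2:**
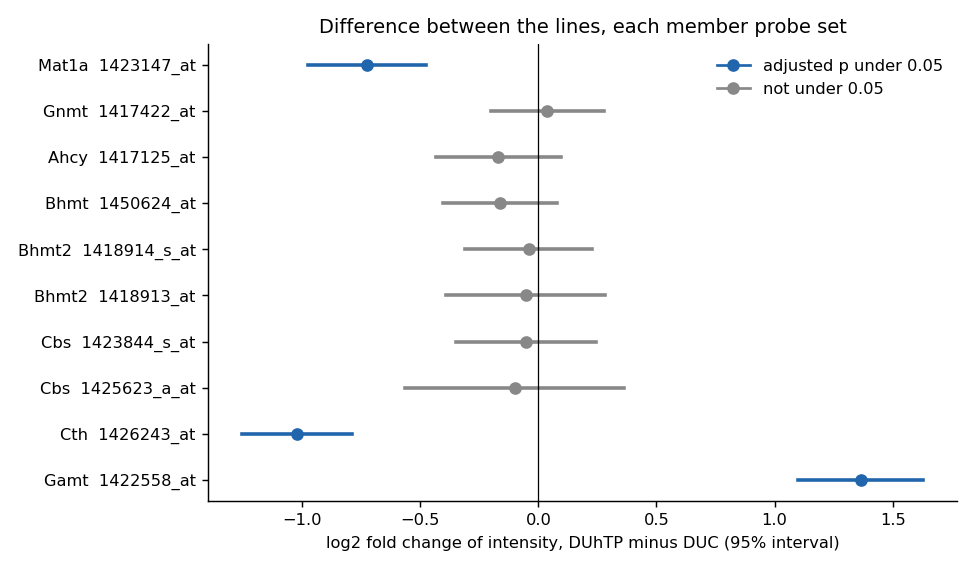
Log2 fold change of intensity (DUhTP minus DUC) of the 10 member probe sets with its 95% interval from limma. The intervals of Mat1a, Cth and Gamt, in blue, lie away from 0, and the other 7 intervals include 0.

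With 16 added to every intensity before the log, a setting that damps differences among dim probe sets, 8.62% of all probe sets were called. Among the members the calls were again Gamt, Cth and Mat1a (log2 fold changes 1.33, -1.02 and -0.72, adjusted p = 1.24e-04, 3.80e-04 and 0.00302). In that setting the 3 calls held whichever array was left out, with an adjusted p of at most 0.00204 for Gamt, 0.00472 for Cth and 0.0221 for Mat1a. Combining both settings was a choice made once the data had been seen. The 7 other member probe sets had adjusted p values from 0.400 to 0.872 in the fit without a constant, and 3 of the 10 had an unadjusted p under 0.05.

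**Figure D3:**
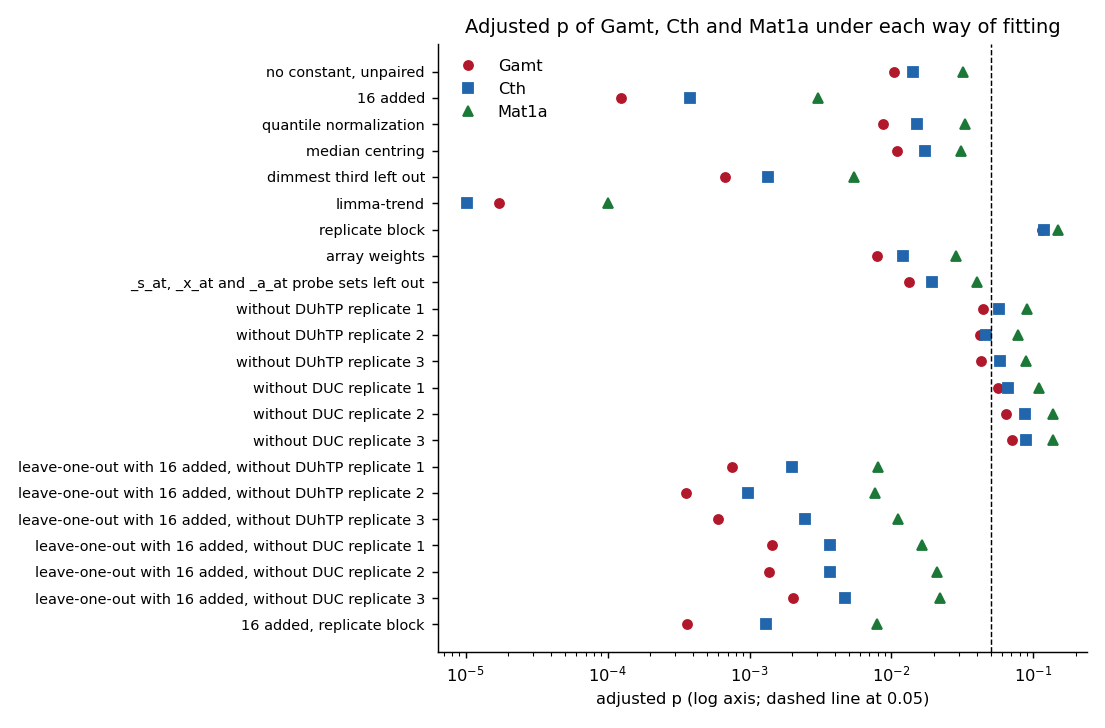
Adjusted p (log axis, dashed line at 0.05) of Gamt, Cth and Mat1a under each way of fitting. With no constant, all 3 genes lie past the line when the replicate number is a block, and Mat1a does so whichever array is left out, Cth in 5 and Gamt in 3 of 6 such fits. All points lie below the line in the fits with 16 added.

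The unequal outcome within the cycle was also followed inside each array, where scaling between arrays cancels. The difference of log2 intensity between Cth and Cbs (brighter probe set) was 0.91, 0.84 and 1.12 in DUhTP mice, against 1.99, 1.88 and 1.90 in DUC mice. It was thus lower by 0.97 in DUhTP mice, with a standard error of 0.09. Between Gamt and Gnmt it was -3.43, -3.46 and -3.58 in DUhTP mice, against -4.80, -4.82 and -4.83 in DUC mice, higher by 1.32 in DUhTP mice (standard error 0.04). Between Mat1a and Ahcy it was -0.65, -0.71 and -0.52 in DUhTP mice, against -0.07, -0.10 and -0.04 in DUC mice, and it fell by 0.56 (standard error 0.06). Between Bhmt and its neighbour Bhmt2 it was 2.09, 2.20 and 2.13 in DUhTP mice, against 2.27, 2.28 and 2.23 in DUC mice, a change of -0.12 (standard error 0.04). The lines did not overlap in any of these 4 pairs. The pairs with Cth, Gamt and Mat1a each set a called member against a member not called. Their separation thus follows largely from those calls and adds no support to them. How often other pairs of genes do not overlap was not counted. A two-sided exact permutation test gave p = 0.10 for each, also after adjustment over the 4 pairs, which is the smallest p that 3 arrays against 3 allow. These values describe unequal changes of probe sets and give no ratio of transcript amounts.

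**Figure D4:**
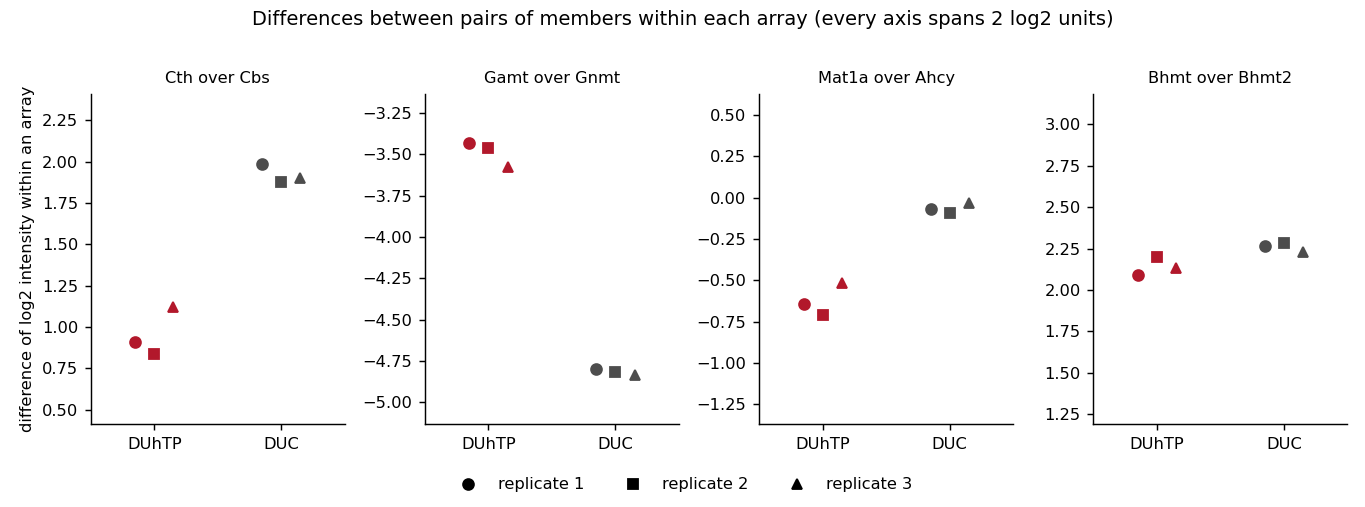
Difference of log2 intensity between 2 members within each array, for 4 pairs, with DUhTP arrays in red and DUC arrays in grey and every axis spanning the same range. The shift between the lines is 1.32 for Gamt over Gnmt and -0.97 for Cth over Cbs, and small (-0.12) for Bhmt over Bhmt2.

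Around these 9 genes, 111 other genes of folate, betaine, methyltransferase, sulfur, creatine and polyamine metabolism had been listed, again with earlier results known. Of the 111, 90 were measured. Of these, 3 genes rose and 4 fell, 3.33% and 4.44% of the 90, against 1.92% and 1.40% of all genes with a probe set of their own. Their median log2 fold change was -0.0044 on the brightest probe set of each, and that of all genes was 0.00. Without DUC replicate 2, 0 of the 7 kept the call, and without DUC replicate 1 or 3 it was kept by 2. Without DUhTP replicate 1, 2 or 3 it was kept by 4. With 16 added 18 of the 90 genes passed, which is 20.0%, against 11.3% of all genes in that setting.

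Downstream of Cth, the enzymes of cysteine use went in both directions. Csad, cysteine sulfinic acid decarboxylase of taurine synthesis, fell in DUhTP mice. It read 315, 438 and 393 there, against 1307, 1324 and 1302 in DUC mice (FC -3.47, adjusted p = 0.0107, 0.0583, 0.0673 and 0.0725 without DUC replicate 1, 2 or 3). Got1, the cytosolic aspartate transaminase, which also transaminates cysteine sulfinate, fell as well (FC -3.86, adjusted p = 0.00945, and 0.0633 without DUC replicate 2). Gclc, the catalytic subunit of the enzyme that commits cysteine to glutathione, rose on both of its probe sets. The brighter, 1424296_at, read 3374, 3200 and 3625 in DUhTP mice, against 1945, 2086 and 2079 in DUC mice (FC 1.67, adjusted p = 0.0335, and 0.0688 to 0.137 without any 1 array). Ethe1, the mitochondrial persulfide dioxygenase of sulfide breakdown, rose too, with 1459, 1510 and 1573 in DUhTP mice, against 760, 712 and 642 in DUC mice. Its FC was 2.15 (adjusted p = 0.0180, and 0.0576 to 0.0944 without any 1 array). Cdo1, which oxidizes cysteine to its sulfinate, averaged 5242 ± 639 in DUhTP mice, against 7054 ± 417 in DUC mice (SD, n = 3 arrays each) and did not pass (adjusted p = 0.148). In all, 2 of 14 measured genes of cysteine, glutathione, taurine and sulfide metabolism rose, 2 fell and 10 did not pass, with a median log2 fold change of 0.10.

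Among other methyltransferases that use S-adenosylmethionine, 0 of 22 measured genes rose and 2 fell, with a median log2 fold change of -0.07. As3mt, the arsenic methyltransferase, read 212, 198 and 233 in DUhTP mice, against 549, 645 and 566 in DUC mice. It had an FC of -2.74 (adjusted p = 0.0118, and 0.0546, 0.0649 and 0.0725 without DUC replicate 1, 2 or 3). The other was Nnmt, which methylates nicotinamide. It read 377, 305 and 416 in DUhTP mice, against 2191, 2141 and 1861 in DUC mice (FC -5.68, adjusted p = 0.00708, and 0.0565 without DUC replicate 2). Both thus moved opposite to Gamt. Over all genes 1.92% rose and 1.40% fell, so 0 of 22 rising says little. With 16 added 3 of the 22 rose and 4 fell. Those that rose were Tpmt, Coq5 and Inmt (lowest adjusted p of each 0.0063, 0.0191 and 0.0382). Without a constant Tpmt narrowly missed the call (FC 1.79, adjusted p = 0.0539). Pcmt1 and Pnmt joined the 2 that fell, each on its dimmest probe set alone (adjusted p 0.0443 and 0.0485 with 16 added). On 1431086_s_at Pcmt1 read 55.8, 48.5 and 56.2 in DUhTP mice, against 86.6, 67.8 and 87.7 in DUC mice. On 1450606_at Pnmt read 1.91, 4.50 and 7.41 in DUhTP mice, against 12.5, 10.7 and 14.2 in DUC mice, far below the array medians. On their brightest probe sets the log2 fold changes without a constant were -0.06 for Pcmt1 and 0.06 for Pnmt (adjusted p = 0.782 and 0.901). Gamt was thus not alone in rising in that setting. Mettl7b, the brightest of the methyltransferases that did not pass, stood at 0.25 on the log2 scale (adjusted p = 0.289).

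On the supply side, 1 of 15 measured genes of folate and one-carbon metabolism rose and 0 fell (median log2 fold change 0.17). This was Slc46a1, the proton-coupled folate transporter, on both of its probe sets. On 1426714_at it read 250, 189 and 192 in DUhTP mice, against 50.4, 69.7 and 81.7 in DUC mice. On 1426715_s_at it read 364, 314 and 289 in DUhTP mice, against 98.1, 114 and 151 in DUC mice. The FC was 3.16 and 2.69 (adjusted p = 0.0310 and 0.0316, and at best 0.0722 to 0.120 without any 1 array). Aldh1l1, a folate enzyme that releases formate units as CO2, stood at 0.23 on the log2 scale on its brighter probe set (adjusted p = 0.411). In choline, betaine and glycine metabolism 0 of 14 genes passed in either direction, with a median log2 fold change of 0.04. Its brightest gene, Aldh7a1, which oxidizes betaine aldehyde to betaine, stood at 0.25 on the log2 scale on 1460167_at (adjusted p = 0.244). Accessory proteins of the synthetase and hydrolase and genes of adenosine handling also had 0 of 8 called (median log2 fold change -0.06). Adenosine kinase, Adk, which clears the adenosine released by Ahcy, averaged 5615 ± 305 in DUhTP mice, against 6522 ± 454 in DUC mice on 1438292_x_at (SD, n = 3 arrays each, limma adjusted p = 0.336).

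**Figure D5:**
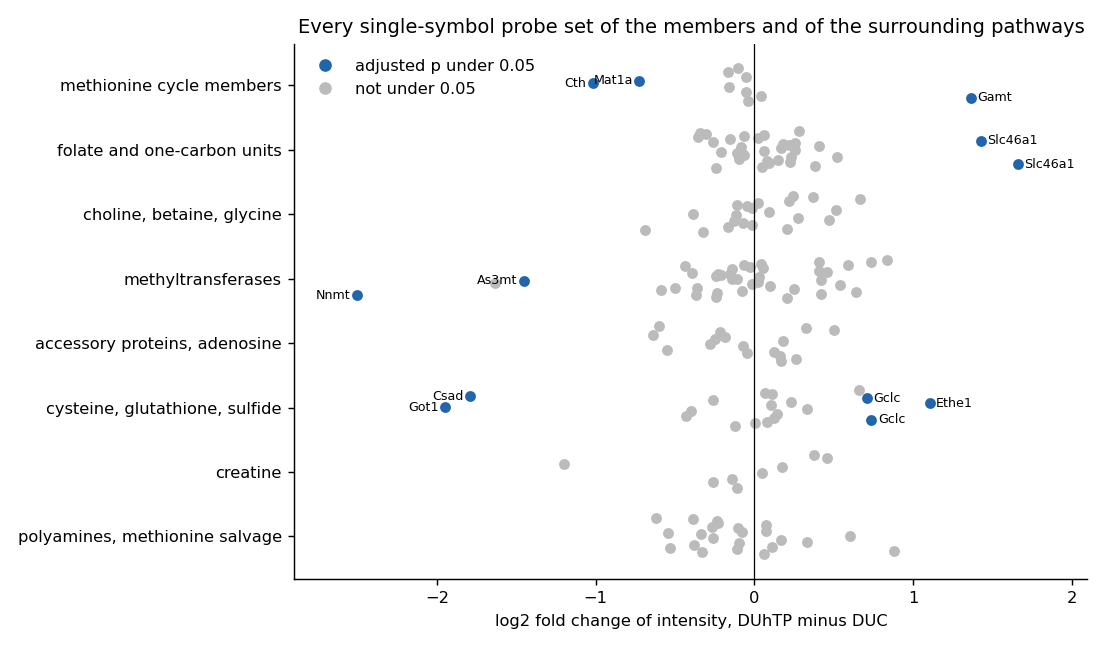
Change on the log2 scale (DUhTP minus DUC) of each single-symbol probe set of the members and of 7 lists of surrounding pathway genes, with those at an adjusted p under 0.05 in blue and named. In the list of cysteine use, Gclc and Ethe1 lie above 0 and Csad and Got1 below it.

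The livers also differed in markers of other cells. The arrays had median intensities between 53.1 and 57, and the lowest correlation of log2 intensity was 0.959 within DUhTP, 0.974 within DUC and 0.950 between the lines. Of 9 measured hepatocyte markers 0 rose and 1 fell (Tat, FC -1.84, adjusted p = 0.0370), and their summed intensity was 85562 to 87662 in DUhTP mice and 91901 to 96349 in DUC mice. Markers of exocrine pancreas, an organ next to the liver, read lower in DUhTP mice for 12 of 12 genes, of which 0 passed the test and 7 passed with 16 added. Their summed intensity was 4819, 1081 and 3057 in DUhTP replicates 1, 2 and 3, against 5692, 11180 and 8387 in DUC replicates 1, 2 and 3. The brightest, Cela1, read 1213, 756 and 1064 in DUhTP mice, against 846, 1429 and 1029 in DUC mice. Ctrb1 read 460, 36.0 and 186 in DUhTP mice, against 754, 1757 and 1318 in DUC mice. On these brightest probe sets none of the pancreas markers was at 0, the lowest value being 9.73 (Ctrl). A part of pancreatic RNA in the values of any member, Cth, Gamt and Mat1a included, was not tested. Of 8 markers of Kupffer cells and leukocytes 1 rose (Clec4f, FC 2.18, adjusted p = 0.0320) and 0 fell, and 3 of the 8 read lower in DUhTP mice by sign. With 16 added 4 rose and 1 fell, Marco (FC -1.52 and adjusted p = 0.0778 without a constant, adjusted p = 0.0434 with 16 added). Marco read 29.4, 36.6 and 31.0 in DUhTP mice, against 47.3, 46.8 and 52.8 in DUC mice, all below the array medians. Cd5l had an FC of -1.01 (adjusted p = 0.988). The list had sums of 3633 to 4643 in DUhTP mice and 2528 to 3383 in DUC mice. For stellate cells 1 of 7 rose (Col3a1, FC 1.91, adjusted p = 0.0434), with sums of 2003 to 2553 in DUhTP mice and 2083 to 2393 in DUC mice. For endothelium 0 of 7 were called, with sums of 2417 to 2717 in DUhTP mice and 2053 to 2282 in DUC mice. With 16 added 1 of them rose, Stab2 (adjusted p = 0.0437). Of 2 red cell markers Alas2 rose (FC 1.85, adjusted p = 0.0499) and Hba-a1 had an FC of -1.06 (adjusted p = 0.869). Their sums of 1222 to 1602 in DUhTP mice and 706 to 799 in DUC mice were mostly Alas2, which read 1187 to 1558 in DUhTP mice and 650 to 763 in DUC mice. Hba-a1 read only 43.9, 35.2 and 51.2 in DUhTP mice, against 45.7, 36.4 and 56.4 in DUC mice. These values lie near or below the array medians, so its FC says little about red cells. Of 5 bile duct markers and 5 of kidney, adrenal or fat, 0 were called. Their sums were 114 to 151 and 116 to 145 in DUhTP mice, and 127 to 136 and 97.6 to 117 in DUC mice. Their part in the results was not tested, and in whole liver fewer hepatocytes and less RNA per hepatocyte cannot be told apart.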

How the data were processed

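Liver RNA of 3 DUhTP and 3 DUC arrays was measured on Affymetrix Mouse Genome 430A 2.0 arrays. The deposited values are intensities on a linear scale, which the authors obtained with PLIER in Array Assist after global array scaling (GCOS 1.1.1 per the submitters' processing notes). Neither the PLIER version nor an added constant is given in the sources used here. Of 22690 probe sets 64 controls were left out. Symbols came from the platform annotation: 20380 probe sets carry 1 symbol, 691 several and 1555 none. Log2 intensities were fitted in limma 3.58.1 (R 4.3.3) with lmFit and eBayes, unpaired, as the methods describe, with Benjamini-Hochberg adjustment over 22626 probe sets. Where a member has several probe sets all are given, whereas for other genes not all are. In medians the probe set with the highest mean over the 6 arrays stands for its gene. All members were named. From the 7 pathway lists, every called gene and the brightest uncalled gene were named, and from the markers the brightest pancreas genes. Called markers, and Marco, Cd5l, Hba-a1, Hnf4a, Ctrl, Stab2, Alb, Apoa1, Apoa2, Ttr, Cps1 and Fgb, were named after their values were seen. So were the methyltransferase genes Tpmt, Inmt, Coq5, Pcmt1 and Pnmt. Members and lists were chosen with earlier results of these data known. Alternatives were 16 added, quantile normalization, median centring, the dimmest 33.3% left out, limma-trend, array weights, a replicate block, single arrays left out, and probe set rules. The script was first run on simulated intensities in which 200 probe sets differed by known amounts. Where nothing says that arrays came from separate animals, p measures only the spread between arrays. The number of arrays limits the precision.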

Additional observations from a re-analysis of the deposited data

How the results depend on the processing

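Gamt, Cth and Mat1a kept direction and call with 16 added, quantile normalization, median centring, the dimmest 33.3% left out, limma-trend, array weights, and probe sets ending in _s_at, _x_at or _a_at left out. With 1 array left out and no constant the log2 fold change ranged from 1.33 to 1.42 for Gamt, from -1.03 to -1.01 for Cth and from -0.76 to -0.69 for Mat1a, and 0 to 2 of the 3 kept the call. The same fits with 16 added, chosen after seeing the data, gave 1.29 to 1.38, -1.02 to -1.01 and -0.76 to -0.69, and 3 of 3 were called. Bhmt2 ranged from -0.092 to 0.020 on 1418914_s_at and from -0.15 to 0.053 on 1418913_at, and Cbs from -0.11 to 0.030 on 1423844_s_at and from -0.27 to 0.071 on 1425623_a_at, so their sign depends on 1 array (0.020, 0.052, 0.029 and 0.070 without that array and with 16 added). The members not called in the report were not called in any fit.

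The replicate number was not shown to pair the arrays: deviations from the line means correlated at 0.00341, 0.0048 and 0.0667 between same-numbered arrays. Between arrays of different number the correlations ran from -0.0335 to 0.0281, so the 0.0667 of replicate 3 was the highest. With the replicate block 0 probe sets of the array, 0 of the members and 0 list genes were called. Gamt, Cth and Mat1a then kept log2 fold changes of 1.36, -1.02 and -0.73 at adjusted p = 0.115, 0.119 and 0.149. With 16 added and the replicate block, chosen after seeing the data, 1800 probe sets and 17 list genes were called, and the same 3 members.

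Over the whole array 546 probe sets were called in the report's fit, 327 with an FC over 2 as well, 1951 with 16 added, 1854 without the dimmest 33.3% and 2350 with limma-trend. Leaving out 1 array gave 1 to 122, and 771 to 1591 with 16 added. The 7 called list genes became 18, 17 and 22 with 16 added, without the dimmest 33.3% and with limma-trend. They became 0 to 4 without 1 array, and 10 to 16 with 16 added as well. The causes were not tested. Of the probe sets called, 308 of 546 were higher in DUhTP mice without a constant, 888 of 1951 with 16 added, 889 of 1854 without the dimmest 33.3% and 1066 of 2350 with limma-trend.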

Other observations

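In creatine handling beyond Gamt, 0 of 6 measured genes passed in either direction, and with 16 added it was also 0. The creatine transporter Slc6a8 read 112, 90.0 and 80.1 in DUhTP mice, against 107, 101 and 100.4 in DUC mice on 1448596_at (adjusted p = 0.654). The median log2 fold change of the 6 was 0.11. Polyamine synthesis uses decarboxylated S-adenosylmethionine, and methionine salvage recycles what that use leaves. Of 12 measured genes of these routes 0 passed, with a median log2 fold change of -0.10. With 16 added 1 rose and 1 fell. The antizyme Oaz1, which restrains polyamine synthesis, averaged 4850 ± 362 in DUhTP mice, against 4605 ± 112 in DUC mice (SD, n = 3 arrays each, limma adjusted p = 0.753).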
